A study of Mus musculus with 11 samples.

Results

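H3K27me3 in endocrine cells of the postnatal mouse pancreas is described here for Isl1CKO against Control, over 4 of the 11 libraries of the series and all 20086 unique regions of the H3K27me3 table, out of 73897 regions or windows in the 3 tables of the series. Every region in that table was taken, after 90 rows that repeated the coordinates of another row were dropped, and the regions lay next to 8088 genes. Control mice were Isl1loxP/+;Neurod1-cre and Isl1CKO mice were Isl1loxP/loxP;Neurod1-cre. Both genotypes carried the Cre, which recombines in Neurod1-expressing endocrine cells, together with a tdTomato (Ai14) reporter on a C57BL/6 background. Controls are therefore heterozygous for the floxed allele and not wild type. Cells were sorted for tdTomato at P9 (day 9 after birth). Each genotype had 2 libraries, and each library was an independent pool of 3 to 4 pancreases of males and females and of about 20000 cells. The sort takes endocrine cells together, so lower H3K27me3 per cell and fewer cells with the mark cannot be told apart, and neither can a change in the mix of islet cell types. ISL1 is a LIM-homeodomain transcription factor needed for islet endocrine cells. The removed part of Isl1 is not given in the labels, and no region here checks the deletion.

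H3K27me3 is trimethylation of lysine 27 of histone H3 and is placed by Polycomb repressive complex 2 (PRC2). CBX proteins of Polycomb repressive complex 1 bind it, and both complexes keep developmental genes of other lineages silent, typically as broad domains over CpG-rich promoters. In pancreatic islets the mark is known at non-endocrine lineage genes and at genes that mature beta cells keep off. The libraries were made by CUT&Tag, in which an antibody guides a transposase to the marked chromatin.

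The Control libraries held 1202276 and 1750706 counts in regions and the Isl1CKO libraries 2276887 and 2260039. Both Isl1CKO libraries were thus deeper than both Control libraries, so depth and genotype cannot be told apart. Across regions the log CPM of library pairs correlated at r = 0.653 to 0.802. The lowest 2, 0.653 and 0.666, were between Control replicate 2 and the Isl1CKO libraries. Of the 20086 regions, 0.757% had 0 counts in Control replicate 1, 5.70% in Control replicate 2, 1.55% in Isl1CKO replicate 1 and 2.2702% in Isl1CKO replicate 2, so Control replicate 1 had the fewest. The tissue label was checked by promoter regions of the H3K27ac table, the mark of active promoters from the same series. Such regions were listed for 14 of 18 beta cell genes, 15 of 25 islet transcription factors and 9 of 14 alpha cell genes. For PP and epsilon cell genes it was 6 of 7, but for delta cell genes only 3 of 10. They were listed for 1 of 14 acinar, 1 of 10 endothelial, 1 of 11 mesenchymal, 0 of 9 immune, 1 of 7 glial, 3 of 10 ductal and 4 of 10 neuronal genes.

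No single region was called. With edgeR's quasi-likelihood test and Benjamini-Hochberg adjustment, 0 of 19434 tested regions (0%) passed an adjusted p of 0.05, and the smallest adjusted p was 0.833. Without adjustment 841 regions (4.33%) had a p below 0.05, of which 580 (2.98%) were lower and 261 (1.34%) higher in Isl1CKO. DESeq2 called 109 regions (0.561%), 107 lower (0.551%) and 2 higher (0.0103%), and edgeR without Control replicate 1 called 11. The authors' deposited table lists 7791 of 20086 regions (38.8%) at an adjusted p below 0.05, 5950 lower (29.6%) and 1841 higher (9.17%). In simulated counts of this design, edgeR recovered 0 of 88 regions with a 2-fold change and 10 of 82 with a 4-fold change. At a mean count of at least 200 it recovered 0 of 8 and 8 of 13 (61.5%). Both Isl1CKO libraries lay below both Controls in 3242 tested regions (16.7%) and above both in 3627 (18.7%), 35.3% in either direction. The regions below are described by these values and by the 4 libraries, not as calls.

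The clearest shared feature of the Isl1CKO libraries was a smaller share of the mark in wide domains and at promoters. Domains of at least 5 kb numbered 1581. They held 56.7% and 56.9% of all counts in the Control libraries and 54.0% and 53.7% in the Isl1CKO libraries, or 56.8% ± 0.165 against 53.8% ± 0.259 (SD, n = 2). The groups did not overlap. In an exact two-sided permutation test p was 0.333, which is the smallest value that 2 against 2 libraries can give. Regions under 1 kb went the other way, with 4.50% and 5.41% of counts in Control and 6.59% and 6.77% in Isl1CKO. Measured per kb, domains of at least 5 kb had 44.4 and 43.3 CPM (TMM-scaled read counts relative to library size) in Control and 38.9 and 38.1 in Isl1CKO. Regions under 1 kb had 9.56 and 11.1 in Control and 12.84 and 13.04 in Isl1CKO. Wide domains thus stayed the densest part of the landscape in every library, with a smaller lead over narrow regions in both Isl1CKO libraries.

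By annotation, promoter regions up to 3 kb from a start site held 68.7% and 68.1% of counts in Control and 65.1% and 64.9% in Isl1CKO (68.4% ± 0.376 and 65.0% ± 0.149, SD, n = 2). The difference lay within 1 kb of the start, where the shares were 63.2% and 62.3% in Control and 59.3% and 59.0% in Isl1CKO. Distal intergenic regions held 12.5% and 13.4% in Control and 14.9% and 15.0% in Isl1CKO, and introns held 7.23% and 7.69% in Control and 8.86% and 8.97% in Isl1CKO. Groups did not overlap for any of these 4 shares (exact permutation p = 0.333 each, the smallest possible). Exons were slightly higher and 5-prime UTR regions slightly lower in Isl1CKO without overlap, whereas the shares of 3-prime UTR regions and of promoters 1 to 2 kb and 2 to 3 kb from a start overlapped between genotypes.

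**Figure D1:**
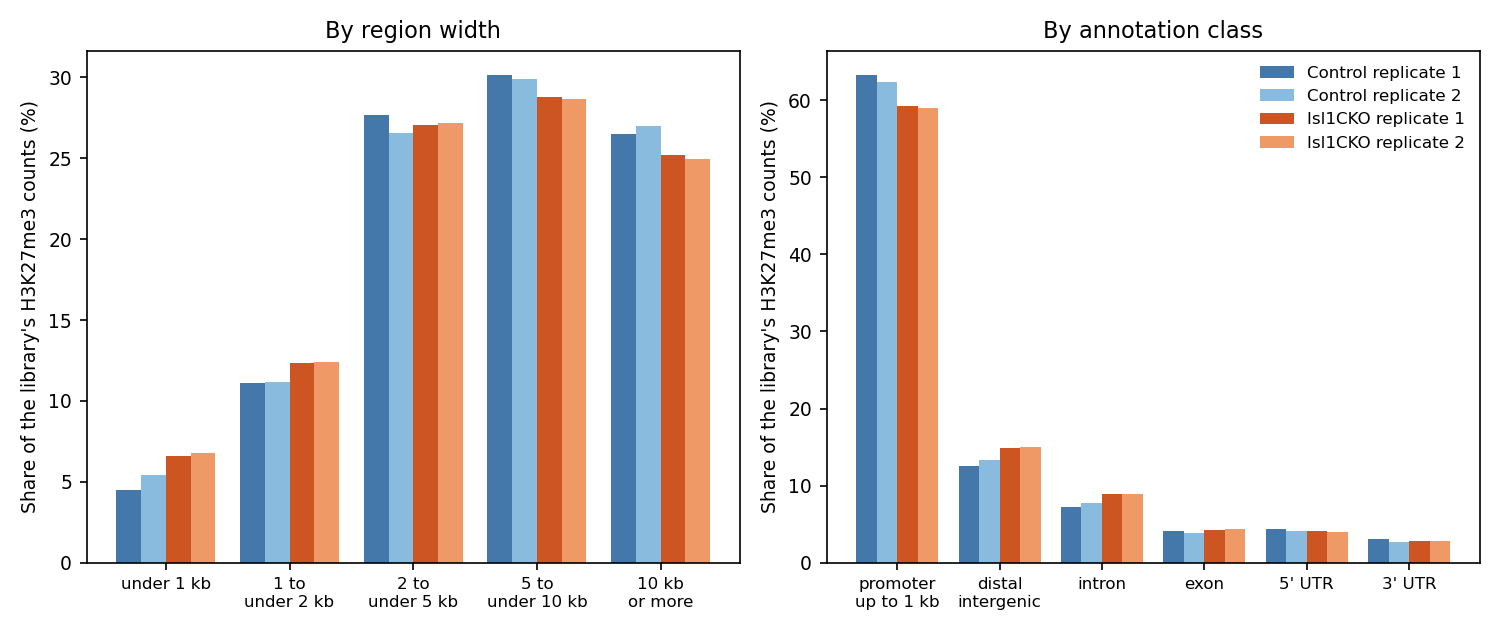
Share of each library's H3K27me3 counts (y axis, %) by region width (left) and by annotation class (right), with 1 bar for each of the 4 libraries. In both Isl1CKO libraries the 2 widest classes and promoters up to 1 kb hold less of the counts than in both Controls, and regions under 2 kb, distal regions and introns hold more.

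The fold change followed the mean level of a region. Over 19434 regions, Spearman's rho between the log2 fold change of Isl1CKO over Control and the mean CPM was -0.24. It was -0.12 to -0.20 for each Isl1CKO library over each Control library, and -0.02 and -0.01 for the 2 libraries of the same genotype. Regions share their libraries and the fold change is built from the same counts as the mean, so these are descriptions. Level and width run together (rho 0.88). The median log2 fold change was 0.39 in regions under 10 CPM, 0.06 at 10 to under 20, 0.01 at 20 to under 50, -0.09 at 50 to under 200 and -0.18 at 200 CPM or more. The trend therefore ran between genotypes and not between replicates, and the depth difference noted above runs along with it. Its part in the trend was not tested.

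By width, the median log2 fold change went from 0.37 in 6123 tested regions under 1 kb to -0.14 in 1218 domains of 5 to under 10 kb and -0.19 in 363 domains of 10 kb or more. Of those 363 domains, 301 had a fold change below 0. In 194 both Isl1CKO libraries lay below both Controls and in 16 above both, against 16.7% and 18.7% of all regions. Offsets from a loess curve, which remove the trend with mean level, moved the median to -0.08 under 1 kb, 0.00 at 5 to under 10 kb and 0.03 at 10 kb or more. At a matched level width made little difference. Regions of 50 to under 200 CPM had medians of -0.09 at 2 to under 5 kb (1723 regions) and -0.09 at 5 kb or more (555 regions), and at 200 CPM or more these were -0.18 (153 regions) and -0.17 (1024 regions). The zero of the scale also depends on the scaling. The median over all regions was 0.04 with TMM, 0.20 with TMM on domains of at least 5 kb, 0.15 with library totals and -0.45 in the authors' deposited table. The class medians are best read against each other.

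**Figure D2:**
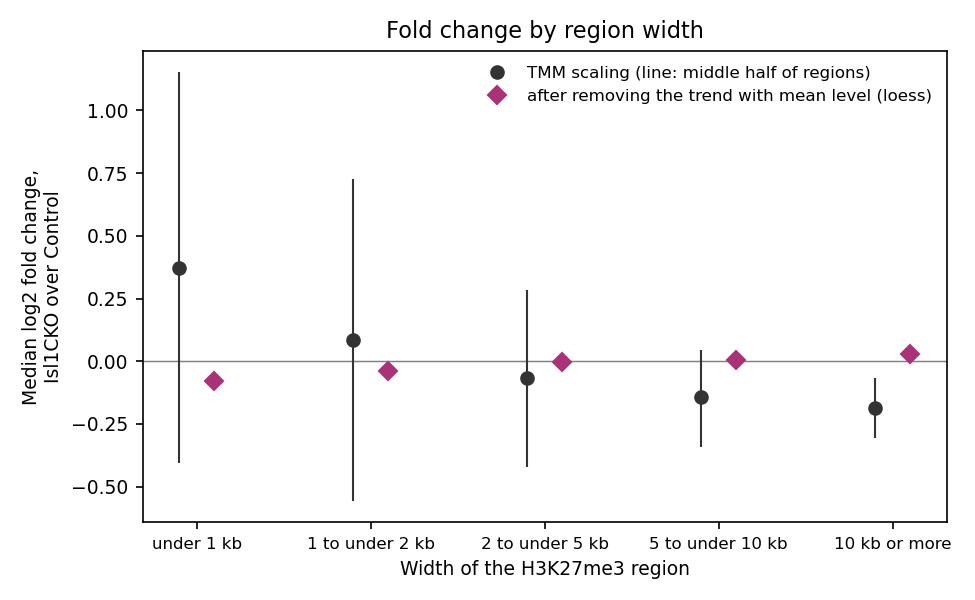
Median log2 fold change of Isl1CKO over Control (y axis) for 5 classes of region width (x axis); circles are TMM-scaled values with a line from the lower to the upper quartile over regions, and diamonds are values after the loess offsets. The circles descend from 0.37 to -0.19 with width, and the diamonds lie between -0.08 and 0.03.

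Promoters differed from other regions also where the level was matched, a description added after the values had been seen. At 20 to under 50 CPM the median log2 fold change was -0.13 in promoter regions up to 3 kb and 0.07 elsewhere. At 50 to under 200 CPM it was -0.16 and 0.00, and at 10 to under 20 CPM -0.09 and 0.11. The gap was smaller at 200 CPM or more, with -0.19 and -0.14. The difference between promoters and the rest stayed below 0 in all 5 classes of level with the loess offsets and without each library in turn.

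Regions that also overlapped an H3K27ac region were lower in Isl1CKO, but mainly relative to Control replicate 1. Such overlap, of at least 1 bp, was found for 1942 of 20086 regions, and can come from cells of different types in a pool. Among domains of at least 5 kb the median was -0.28 with H3K27ac (381 regions) and -0.13 without (1200). At 2 to under 5 kb it was -0.31 and -0.01, and under 2 kb -0.25 and 0.22. Without Control replicate 1 the differences between regions with and without H3K27ac came to -0.04, -0.10 and -0.10 in these 3 width classes, and without Control replicate 2 to -0.30, -0.48 and -0.76. The overlapping regions held 21.4% of counts in Control replicate 1, against 18.4% in Control replicate 2 and 17.3% and 17.7% in the Isl1CKO libraries. One Control library thus stood apart at these regions, and the other lay nearer to the Isl1CKO libraries than to its replicate.

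**Figure D3:**
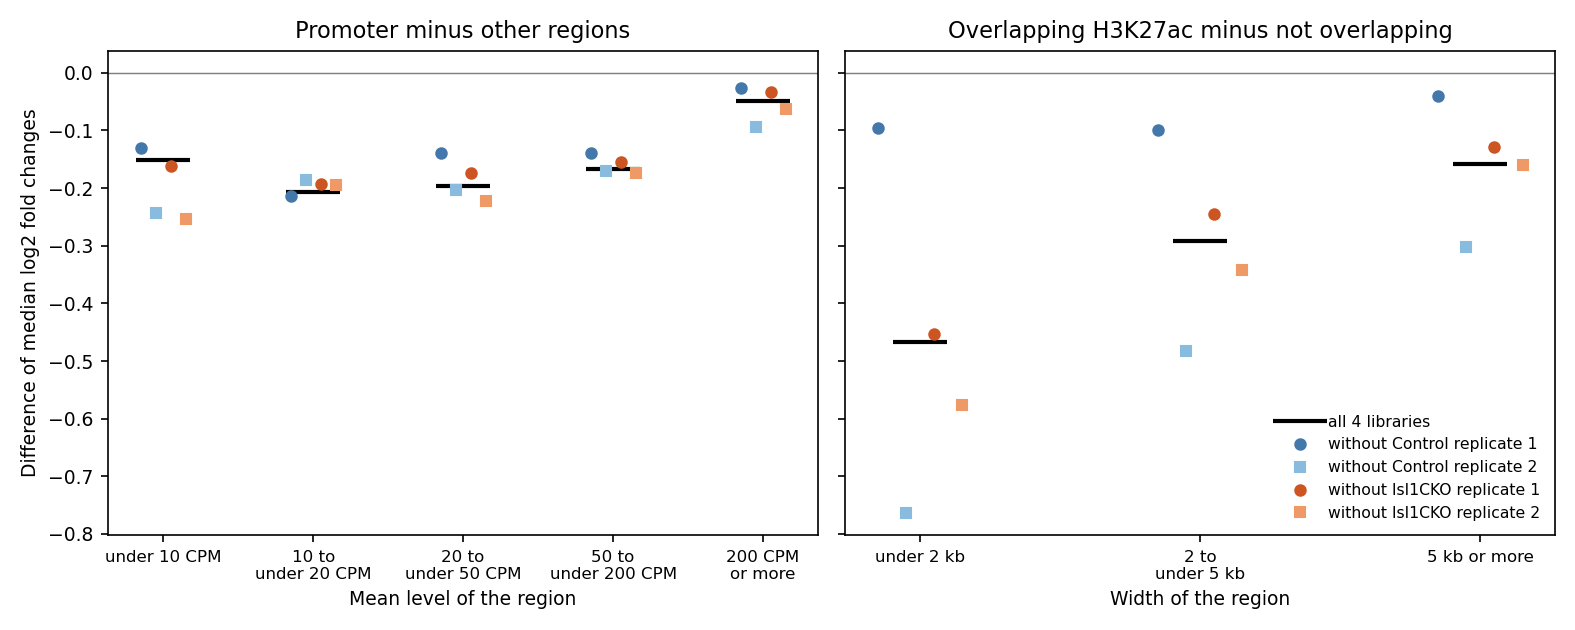
Difference of median log2 fold changes (y axis) between promoter and other regions by mean level (left), and between regions with and without an overlapping H3K27ac region by width (right); bars use all 4 libraries and points leave out 1 library. On the left all points lie below 0 and near the bars, and on the right the points without Control replicate 1 move up to between -0.10 and -0.04.

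The promoters of 3 low domains and of 1 high domain are shown because the mark covers their start sites. They are the 250 bases before the RefSeq start on GRCm38.p6, 5′ to 3′ on the gene's strand, with each CG, the dinucleotide that Polycomb domains favour, in capitals; the regions themselves are placed on GRCm39.
Sema5b: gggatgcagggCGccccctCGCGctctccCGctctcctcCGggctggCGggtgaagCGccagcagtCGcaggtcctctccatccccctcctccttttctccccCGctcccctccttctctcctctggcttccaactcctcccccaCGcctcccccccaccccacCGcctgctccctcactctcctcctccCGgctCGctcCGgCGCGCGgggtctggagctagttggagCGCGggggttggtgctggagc
Scarf2: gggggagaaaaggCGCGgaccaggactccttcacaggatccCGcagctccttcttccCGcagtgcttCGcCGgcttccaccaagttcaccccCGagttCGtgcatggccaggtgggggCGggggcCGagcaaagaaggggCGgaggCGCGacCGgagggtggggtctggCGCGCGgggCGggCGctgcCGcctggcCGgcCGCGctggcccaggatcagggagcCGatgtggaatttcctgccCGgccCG
Tnfaip2: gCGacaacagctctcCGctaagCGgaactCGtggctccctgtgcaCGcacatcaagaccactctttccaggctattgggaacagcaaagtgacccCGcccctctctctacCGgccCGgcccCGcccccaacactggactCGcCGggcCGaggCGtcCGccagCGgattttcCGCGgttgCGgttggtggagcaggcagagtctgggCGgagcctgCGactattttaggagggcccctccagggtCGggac
Pdyn: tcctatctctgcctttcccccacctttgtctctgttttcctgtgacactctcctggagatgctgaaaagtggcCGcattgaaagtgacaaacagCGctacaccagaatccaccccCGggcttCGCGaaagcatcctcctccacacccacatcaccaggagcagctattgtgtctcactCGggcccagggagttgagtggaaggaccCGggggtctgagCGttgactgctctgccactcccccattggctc
These runs hold 19, 26, 21 and 8 CG. Of 27025 genes with a promoter in the RefSeq table, 19.7% have at least 20 CG in these 250 bases, a share that describes the table and is not compared with the 4 runs. A comparison of CG counts over all promoter regions was void, because only 2575 of the 4523 regions up to 1 kb from a start matched that table.

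Among domains of at least 5 kb, those with the smallest p and both Isl1CKO libraries below both Controls included Sema5b, Tnfaip2 and Scarf2. Sema5b, a semaphorin that guides axons (chr16:35354862-35368192), measured 992 and 912 CPM in Control and 567 and 514 in Isl1CKO. Its replicates lay close to each other, with a clear gap between genotypes. Tnfaip2, a target of tumour necrosis factor (chr12:111408352-111415281), measured 380 and 410 in Control and 193 and 209.9 in Isl1CKO. Scarf2, a scavenger receptor family gene (chr16:17613397-17626790), measured 1214 and 1130 in Control and 749 and 786 in Isl1CKO. The log2 fold changes of these 3 were -0.82 (SE 0.14), -0.97 (SE 0.20) and -0.61 (SE 0.12), each with an edgeR adjusted p of 0.833, and they kept their sign after the loess offsets at -0.60, -0.81 and -0.38. DESeq2 called these 3 domains, with adjusted p of 2.45e-08 for Sema5b, 0.0002 for Tnfaip2 and 2.31e-06 for Scarf2.

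H3K27ac lay inside 2 of these domains. The strongest H3K27ac region in the Scarf2 domain, itself assigned to Zfp520-ps, measured 12.97 and 8.66 CPM in Control and 41.9 and 43.0 in Isl1CKO. In the Tnfaip2 domain it measured 3.81 and 7.58 in Control and 21.0 and 20.8 in Isl1CKO. The H3K27ac groups did not overlap in either domain and lay in the opposite direction to H3K27me3, with edgeR adjusted p of 0.85 and 0.87. The H3K27ac table listed no region inside the Sema5b domain.

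With TMM scaling, wide domains that were higher in Isl1CKO were fewer and less far from the replicate spread. Of 1581 tested domains of at least 5 kb, 113 had both Isl1CKO libraries above both Controls and 611 below, against 18.7% and 16.7% of all regions. In fold change, 69.5% of domains of 5 to under 10 kb and 82.9% of those of 10 kb or more lay below 0. With the loess offsets these 2 shares were 49.3% and 42.7%. Pdyn, which encodes the opioid peptide precursor prodynorphin, lay in a 6359 bp promoter domain (chr2:129537868-129544226) with 233 and 161 CPM in Control and 349 and 270.4 in Isl1CKO. Its log2 fold change was 0.65 (SE 0.24, edgeR adjusted p = 1). An intronic domain of Cacna2d2, an auxiliary subunit of calcium channels (chr9:107281249-107290512), measured 127 and 90.6 in Control and 151.8 and 196 in Isl1CKO. The spread between replicates was large at both genes although the groups did not overlap. The others were a distal domain nearest to Gm16086 (113 and 95.3 against 188 and 182 CPM) and an intronic domain assigned to Gm17455 (77.2 and 36.8 against 102 and 123.5).

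**Figure D4:**
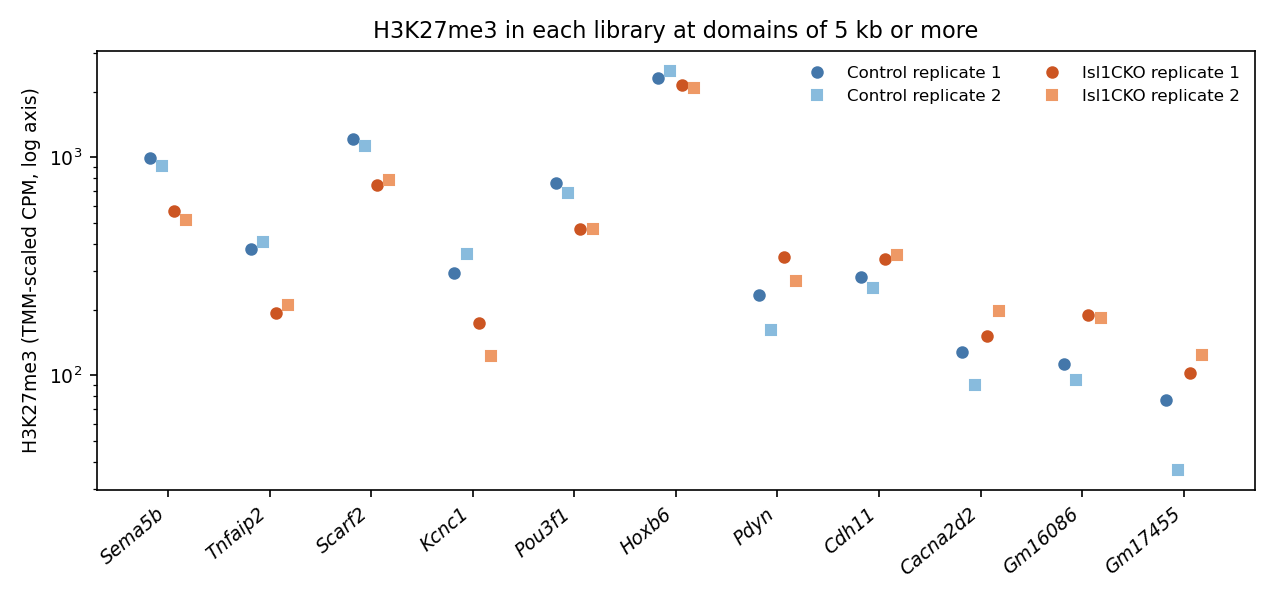
H3K27me3 in TMM-scaled CPM (y axis, log scale) for each of the 4 libraries at 11 domains of at least 5 kb (x axis). At the 5 genes from Sema5b to Pou3f1 both Isl1CKO libraries lie below both Controls, at Hoxb6 the 4 points lie close together, and at the 5 genes from Pdyn to Gm17455 both Isl1CKO libraries lie above.

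The 4 widest domains had log2 fold changes of -0.24 to -0.06, around the median of -0.19 in domains of 10 kb or more. The widest, 60774 bp over Hoxb7 to Hoxb4 and assigned to Hoxb6 (chr11:96177522-96238295), measured 2301 and 2491 CPM in Control and 2152 and 2076 in Isl1CKO. A 34694 bp domain assigned to Gm35610 beside Pax2, a kidney and eye development factor, measured 1901 and 1958 in Control and 1706 and 1561 in Isl1CKO. The 29534 bp domain assigned to Gm13256 beside Gata3 measured 1468 and 1482 in Control and 1515 and 1309 in Isl1CKO, so the groups overlapped there. At the third widest, assigned to E130018O15Rik, the values were 2263 and 2320 in Control and 2143 and 2071 in Isl1CKO. The log2 fold changes of these 4 were -0.18, -0.24, -0.06 and -0.12, and after the loess offsets all were above 0, at 0.10, 0.03, 0.19 and 0.16. Lbx1, a homeobox factor of muscle and dorsal spinal cord, was among the 4 highest domains and stood lower. Its domain measured 2028 and 2217 in Control against 1648 and 1610 in Isl1CKO (log2 fold change -0.38, SE 0.10, and -0.11 after the loess offsets). DESeq2 called the Lbx1 domain (DESeq2 adjusted p 0.000565) and edgeR did not.

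Narrower regions gave the largest fold changes on few counts. Among regions of 1 to under 5 kb, Vps37b, of the endosomal sorting machinery, had an intronic region with 6 and 76 counts in Control against 0 and 0, at least 45.2-fold lower (floor of 3 counts, taken over the group). The antisense gene Prss23os had 8 and 112 against 0 and 2, a ratio of Isl1CKO over Control of 0.0101 (95% counting interval 0.00121 to 0.0372). Almost all of that signal came from Control replicate 2. An exonic region of Dgkh, a diacylglycerol kinase, was more even, with 35 and 61 counts in Control against 6 and 3. Under 1 kb, Ankrd60 had 20 and 108 counts against 7 and 2, and B020031H02Rik, Crb2 and Cdk5r2 had 23 and 33, 15 and 38, and 9 and 43 Control counts, with both Isl1CKO libraries at 0.

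The regions named by the same rule on the higher side lay next to predicted genes. Gm37551 had 1 and 0 Control counts against 45 and 62, and Gm25877 had 2 and 2 against 59 and 48. Gm56255 and the 4 regions under 1 kb, next to Gm54809, Gm5125, Gm9860 and Gm13817, had 0 counts in both Control libraries and 23 to 44 in each Isl1CKO library, at least 12.3 to 13.5-fold higher against the floor. For 1700095B10Rik the counts were 3 and 3 against 72 and 35. These regions were near the detection limit of the shallower Control libraries, in which 3 counts correspond to 2.63 and 1.75 CPM, against 1.28 and 1.27 in Isl1CKO.

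The regions with the lower unadjusted p also differed in kind by direction. Of the 580 lower regions, 37.4% were at least 5 kb wide, 60.0% were promoters and 37.1% overlapped H3K27ac. Of the 261 higher ones, 1.92% were that wide, 16.1% were promoters, 2.299% overlapped H3K27ac and 46.0% were under 1 kb, against 9.31% of the lower ones. Among all tested regions 8.14% were at least 5 kb wide, 31.5% under 1 kb, 33.3% were promoters and 9.89% overlapped H3K27ac. Precision rises with width, which bears on these shares. The SD per library of log2 CPM, derived from the ratio between the Control replicates, was 1.32 under 1 kb and 0.27 at 10 kb or more.

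Gene families were read at 1 region a gene, the highest promoter region or else the highest region. None of their members passed edgeR's adjusted p of 0.05. DESeq2 called 14 of the 510 members tested in the families and marker lists described (2.75%), against 79 of all 7874 genes tested (1.00%). All 14 were lower in Isl1CKO, as were 78 of the 79 over all genes. These shares are not matched for level or width. Of the regions DESeq2 called lower, 52.3% were at least 5 kb wide, against 8.14% of all tested regions. The median level was 539 CPM in homeobox genes outside the Hox clusters and 22.7 CPM over all genes. Of those described below, DESeq2's adjusted p was 0.000877 for Pou3f1, 0.0353 for Hoxb7, 0.00516 for Foxc2, 0.0106 for Bmp2, 0.0172 for Fzd1, 0.00358 for Kcnc1 and 0.000565 for Barx1. Over all 7874 genes tested, 4361 had a log2 fold change below 0 with a median of -0.08, and both Isl1CKO libraries lay below both Controls in 1746 (22.2%) and above both in 1163 (14.8%). Homeobox genes outside the Hox clusters, which specify organs and neuron types, numbered 96. Of these, 81 lay below 0 with a median of -0.23, and 49 (51.0%) had both Isl1CKO libraries below both Controls and 6 (6.25%) above. Among all tested regions at 200 CPM or more these shares were 45.3% and 5.86%. With the loess offsets 53 of the 96 homeobox genes lay below 0 and their median was -0.03, against -0.05 over all genes. Pou3f1, a POU factor of glia and neurons, measured 764 and 685 CPM in Control and 467 and 468 in Isl1CKO, a log2 fold change of -0.63 (SE 0.15, edgeR adjusted p = 0.858). Isl2, the closest relative of Isl1 and singled out after its values were seen, measured 942 and 840 in Control and 658 and 638 in Isl1CKO (log2 fold change -0.46, SE 0.14). The groups did not overlap at either gene.

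Hox genes, which pattern the body axis, had 19 of 25 members below 0 with a median of -0.18, and 12 of 25 with a median of 0.03 after the loess offsets. Hoxb7, in a region next to the widest domain, measured 228 and 221 CPM in Control and 128 and 79.1 in Isl1CKO (log2 fold change -1.12, SE 0.29). Hoxa10 measured 777 and 851 in Control and 645 and 593 in Isl1CKO. Neighbouring regions of the Hoxb cluster therefore differed in the size of the difference. The share of counts over the whole Hoxb cluster, 0.360% and 0.434% in Control and 0.398% and 0.385% in Isl1CKO, overlapped.

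Other developmental factors had medians of like size. Of 28 neural bHLH genes, 22 lay below 0 (median -0.20, -0.01 after the loess offsets). In 11 (39.3%, against 22.2% of all genes) both Isl1CKO libraries lay below both Controls and in 0 (against 14.8%) above. The median level of these bHLH genes was 295 CPM. Among all tested regions at 200 CPM or more, 45.3% had both Isl1CKO libraries below both Controls and 5.86% above. Neurog2, a neuronal relative of the endocrine factor Neurog3, measured 598 and 679 CPM in Control and 464 and 435 in Isl1CKO, and Twist1, a mesenchymal factor, 387 and 341 against 247 and 221. Forkhead genes had 13 of 20 below 0 (median -0.13, 0.08 after the loess offsets), with Foxc2 at 1436 and 1359 against 1058 and 1103 and Foxc1 at 678 and 555 against 376 and 462. Sox, Pax, Tbx and Gata genes had 20 of 29 below 0 (median -0.13, 0.03 after the loess offsets). Pax7, a muscle progenitor factor, measured 1563 and 1948 in Control and 1536 and 1406 in Isl1CKO. Sox1, a neural progenitor factor, measured 521 and 371.3 in Control and 322 and 371.1 in Isl1CKO, with the nearest libraries of the groups almost equal.

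Signalling and adhesion families differed in their medians. Wnt, FGF and BMP pathway genes had 59 of 74 below 0 with a median of -0.25, and 43 of 74 with a median of -0.11 after the loess offsets. Bmp2, a secreted ligand, measured 247 and 314 CPM in Control and 133 and 150 in Isl1CKO (log2 fold change -0.99, SE 0.24, edgeR adjusted p = 0.926). H3K27ac inside the Bmp2 region measured 10.7 and 3.25 in Control and 28.4 and 27.8 in Isl1CKO. Fzd1, a Wnt receptor, measured 93.0 and 80.7 of H3K27me3 in Control and 31.0 and 28.3 in Isl1CKO (log2 fold change -1.54, SE 0.45). H3K27ac in the Fzd1 region was lower too, at 25.2 and 15.1 in Control against 7.49 and 2.78, so the marks differed in opposite directions at Bmp2 and in the same direction at Fzd1. No edgeR adjusted p for these H3K27ac values was below 0.85. Axon guidance genes had 32 of 41 below 0 (median -0.22, -0.08 after the loess offsets). Cadherins had 14 of 29 below 0, with a median of 0.01. Cdh11 measured 282 and 253 in Control and 341 and 355 in Isl1CKO, whereas Cdh22 measured 383 and 245.0 against 178.2 and 245.4, with overlap.

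Genes of excitable cells had 39 of 61 potassium channels (median -0.16, -0.05 after the loess offsets) and 41 of 67 neurotransmitter receptors (median -0.14, -0.03) below 0. Kcnc1, a voltage-gated potassium channel of fast-spiking neurons, had the smallest p of these, with 293 and 360 CPM in Control and 173.96 and 122 in Isl1CKO (log2 fold change -1.14, SE 0.25, edgeR adjusted p = 0.833). Kcnk10, a background potassium channel, measured 197 and 266 in Control and 170 and 99.0 in Isl1CKO. The dopamine receptor Drd4 measured 437 and 367 against 206 and 289, and the adrenergic receptor Adrb1 354 and 325 against 237 and 201. In none of these 4 genes did the groups overlap, but they were named for the smallest p of their families. Both Isl1CKO libraries lay below both Controls in 31.1% of the potassium channels and above in 9.84%. For neurotransmitter receptors the shares were 23.9% and 17.9%, near the 22.2% and 14.8% of all genes. With TMM on wide domains the neurotransmitter receptor median turned to 0.02, those of forkhead and of Sox, Pax, Tbx and Gata genes to 0.03, and the median over all genes to 0.08.

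**Figure D5:**
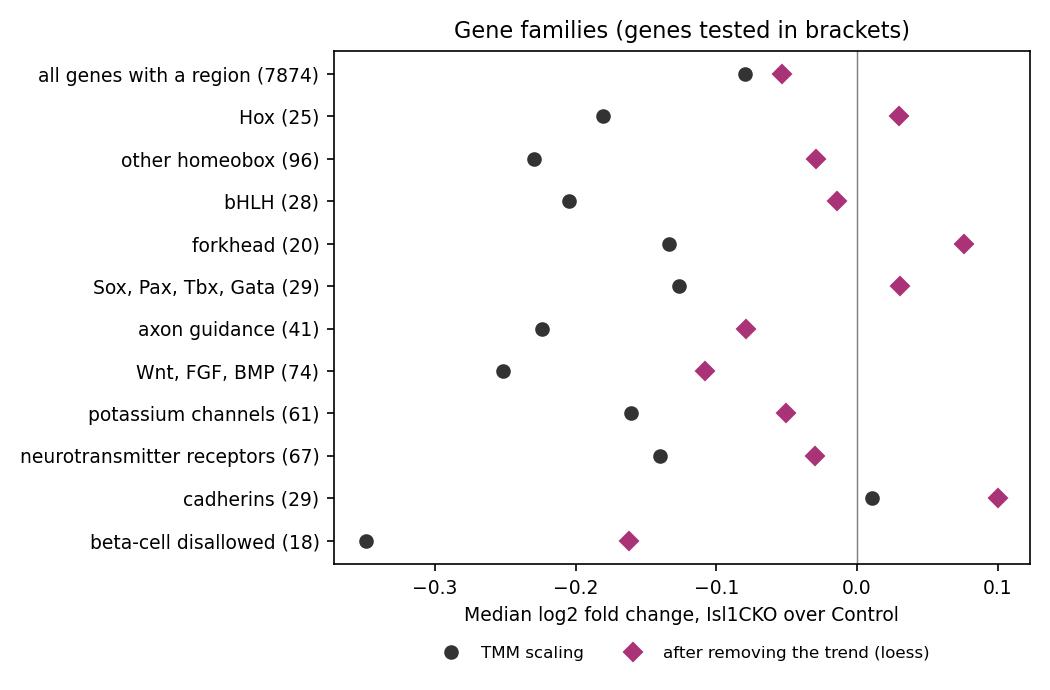
Median log2 fold change of Isl1CKO over Control (x axis) for all genes and 11 gene families (y axis, genes tested in brackets), with TMM scaling (circles) and after the loess offsets (diamonds). Apart from cadherins all circles lie below 0, and the diamonds lie to the right of their circles, between -0.16 and 0.10.

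Genes that mature beta cells keep silent, the disallowed genes, had the lowest median of the families plotted. Of 18, 13 lay below 0 with a median of -0.35, and 13 with -0.16 after the loess offsets. In 7 (38.9%, against 22.2% of all genes) both Isl1CKO libraries lay below both Controls and in 1 (5.56%, against 14.8%) above. Ldha, lactate dehydrogenase A and the best known of them, lay in an 11547 bp domain with 759 and 794 CPM in Control and 675 and 583 in Isl1CKO (log2 fold change -0.30, SE 0.14). Pdgfra, a receptor of mesenchymal cells, measured 750.3 and 765 in Control and 530.0 and 601 in Isl1CKO. Genes of the Polycomb and trithorax groups with a tested region numbered 5, and all 5 had a log2 fold change below 0, 4 of them also after the loess offsets. Cbx8, whose product reads H3K27me3, measured 1270 and 1082 CPM in Control and 937 and 959 in Isl1CKO (log2 fold change -0.31, SE 0.13, edgeR adjusted p = 1).

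Markers of other cell types bear on whether the sorted pools differed. Mesenchymal marker genes had 6 of 6 below 0 (median -0.34), and 5 of 6 with a median of -0.19 after the loess offsets. Among them Barx1, a stomach mesenchyme factor, measured 1565 and 1535 CPM in Control and 1090 and 1195 in Isl1CKO. Neuronal markers had 6 of 7 below 0 (median -0.16), but 3 of 7 with a median of 0.02 after the loess offsets. Prph measured 612 and 480 against 377 and 410.4, and Elavl3 143 and 131 against 98.2 and 69.8. The median level was 393 CPM in the mesenchymal and 470 CPM in the neuronal list. Of all tested regions at 200 CPM or more, 79.0% lay below 0, so the trend with level bears on both lists. Acinar (1 of 3 below 0), ductal (2 of 4), endothelial (3 of 4), immune (0 of 1) and glial (0 of 3) markers were too few to describe further. Ptf1a, the acinar master factor, measured 471 and 518 in Control and 504 and 495 in Isl1CKO. A part of contaminating cells in the results was not tested.

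At several islet genes a single library stood apart. Control replicate 2 held over 60% of the scaled signal in 409 regions, against 51 for Control replicate 1 and 368 and 372 for the Isl1CKO libraries. Among these 409 were regions of the islet genes Nkx6-1, Fev, Tph1 and Cacna2d3. The region nearest to Nkx6-1, a beta cell factor (chr5:101793828-101797162), had 13, 207, 40 and 60 counts in Control 1, Control 2, Isl1CKO 1 and Isl1CKO 2. In the same order the promoter of Fev, a factor of endocrine precursors, had 10, 145, 26 and 58 counts, and a region of Hhex, a delta cell factor, had 28, 261, 95 and 106. In each of them Control replicate 2 was the highest library, and the log2 fold change turned from below to above 0 without it for Nkx6-1 (-1.65 to 0.88), Hhex (-1.07 to 0.78) and Fev (-1.41 to 1.00). At the neighbouring genes of the beta cell potassium channel, singled out after their values were seen, the same library was the lowest. Kcnj11 measured 151, 1.75, 60.4 and 105 CPM and Abcc8 43.9, 0.585, 30.6 and 52.9 in that order.

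Of the other panel genes described here, Irx2, Cdkn2a, Neurog3, Isl1, Mafa and Pdx1 overlapped between the genotypes at the region chosen by the rule. That region was the highest promoter region or else the highest region. Irx2, an alpha cell factor, measured 176.4 and 189 CPM in Control against 185 and 203 in Isl1CKO. Cdkn2a, a senescence gene held by Polycomb, measured 93.9 and 111 against 103 and 100.3 in a region 1 to 2 kb from a start. Its region up to 1 kb from a start was lower in Isl1CKO without overlap, at 72.8 and 67.2 against 24.7 and 47.8 (log2 fold change -0.95, SE 0.50). Neurog3, the endocrine progenitor factor, measured 127 and 98.2 in Control and 94.8 and 108 in Isl1CKO. Sst, the somatostatin gene of delta cells, measured 105 and 116 in Control against 135 and 126 in Isl1CKO without overlap, a log2 fold change of 0.23 (SE 0.30, edgeR adjusted p = 1). Lmx1b measured 20.2 and 19.9 in Control and 9.36 and 11.4 in Isl1CKO without overlap, a log2 fold change of -0.94 (SE 0.84, edgeR adjusted p = 1). Mnx1, a beta cell and motor neuron factor from the families above, measured 364 and 394 against 286 and 281 without overlap (log2 fold change -0.42, SE 0.19, edgeR adjusted p = 1). Its H3K27ac rested on Control replicate 2, with 12.2 and 75.2 CPM in Control and 7.49 and 9.72 in Isl1CKO. The progenitor relatives Neurod2 (1493 and 1428 against 1252 and 1153) and Nkx6-2 (1007 and 1028 against 863 and 895) were lower in both Isl1CKO libraries. All 7 endocrine progenitor genes had a log2 fold change below 0 (median -0.21), as had 4361 of all 7874 genes tested. After the loess offsets 5 of the 7 lay below 0 (median -0.04). Both Isl1CKO libraries lay below both Controls in 2 of the 7 (28.6%, against 22.2% of all genes). The median level of this list was 195 CPM, against 22.7 CPM over all genes. The highest Isl1 region, 14799 bp from its start site (chr13:116429763-116431426), had 5, 15, 9 and 71 counts in the order above, so only Isl1CKO replicate 2 was high. Mafa measured 922 and 668 CPM in Control and 672 and 695 in Isl1CKO, and Pdx1 52.6 and 25.7 against 30.2 and 68.5. Mafa and Pdx1 had an edgeR adjusted p of 1.

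Across chromosomes the shares of counts were even. Groups did not overlap on 7 of 20 chromosomes. Chromosome X held 0.983% and 1.06% of counts in Control and 1.13% and 1.11% in Isl1CKO (exact permutation p = 0.333, the smallest possible). Pools held males and females in proportions the labels do not give. Of its 401 regions, 388 were under 5 kb. Within regions under 5 kb its share was 1.71% and 1.86% in Control and 1.95% and 1.86% in Isl1CKO, where the groups overlapped (exact permutation p = 0.667).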

How the data were processed

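H3K27me3 was measured by CUT&Tag in 4 libraries, grouped by the genotype label. Per the submitters' processing notes, the tools were MACS2 2.2.6, Bowtie2 2.3.5.1, edgeR 4.0.16, Picard 2.27.4 and ChIPseeker 1.38.0, and the build was GRCm39. The authors deposited raw counts per region and library, with annotation and their own log2 fold change, score and p-value columns, from which only their calls and median are quoted. Which parameters were used for each step is not given in the sources used here. Chromosome labels in the table followed the alphabetical order of names. As written, 9.25% matched the chromosome of the region's gene, and after relabelling by that order 100% did. H3K27ac counts, deposited in the same form, were used for overlap and values.

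Of 20086 unique regions, 652 failed filterByExpr. The other 19434 were fitted with edgeR 4.0.16 in R 4.3.3, using TMM factors, genotype as the only term and the quasi-likelihood test, with Benjamini-Hochberg adjustment over all of them. DESeq2 1.42.0, other scalings, loess offsets (span 0.3), a mean count of at least 50, a replicate block and leaving out each library were alternatives. The tests were checked on simulated counts with 200 changed regions. CPM values use TMM-scaled totals of counts in regions. P-values measure the spread between pools, and counting intervals and floors of 3 counts cover counting error only. All per-sample columns were mapped (0 left unused).

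Regions are named by rule. Per width class and direction these were the 4 with the smallest p and non-overlapping groups, 1 a gene. The 4 widest, the 4 highest, a panel of islet and Polycomb genes, and up to 2 per family described were added. A further 7 genes that it picks are left out here. The members, lists and rule were chosen with earlier results of these data known.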

Additional observations from a re-analysis of the deposited data

How the results depend on the processing

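With 2 libraries a group, the number of regions called by edgeR was 0 in every alternative fit but those named here. DESeq2 called 109, and leaving out 1 library gave 0 to 11, the latter without Control replicate 1. The library that remains alone is then assumed to vary like the other group. Counts are limited by depth, which differed between the genotypes, and regions under 1 kb rest on few counts. The shares of counts in domains of at least 5 kb, in promoters, in distal regions and on chromosome X kept their direction under each alternative run, and the difference for the wide domains ranged from -3.15 to -1.68 percentage points. The intron share was not run.

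The pairing of libraries by replicate number was checked, and deviations from the group means of same-numbered libraries correlated at -0.01. The replicate numbers are therefore used only as names. The check covers same-numbered pairs and cannot show whether other libraries were prepared together. With a replicate block edgeR called 0 regions, and 661 had an unadjusted p below 0.05, against 841 without it.

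Some of the regions named changed sign, near 0 under another scaling or filter and also further from 0 when single libraries were left out. The log2 fold change with the loess offsets was 0.10 for Hoxb6, 0.027 for Gm35610, 0.16 for E130018O15Rik, 0.19 for Gm13256, 0.0022 for Mafa, 0.082 for Cdkn2a, 0.0068 for Pax7 and 0.020 for Nkx6-2. TMM on domains of at least 5 kb gave 0.038 for E130018O15Rik, 0.096 for Gm13256, 0.011 for Neurog3 and 0.15 for Cdkn2a. Library totals gave 0.047 for Gm13256 and 0.097 for Cdkn2a, and a mean count of at least 50 gave 0.033 and 0.082. When single libraries were left out, the value ranged from -0.18 to 0.028 for Gm13256, -0.79 to 2.15 for Isl1, -0.44 to 0.025 for Mafa, -0.38 to 0.93 for Pdx1, -2.52 to 0.88 for Nkx6-1, -0.34 to 0.036 for Neurog3, -1.85 to 0.78 for Hhex, -0.14 to 0.11 for Cdkn2a and -2.26 to 1.00 for Fev. The cause was not tested. The comparisons of promoters at matched level and of overlap with H3K27ac were chosen after seeing the data.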
